A study of Mus musculus with 9 samples.

Results

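*Isl1*, *Isl2*, *Mnx1*, *Lhx1*, *Lhx3* and *Lhx4* were chosen by name, as the LIM and Mnx1 homeobox genes of the embryonic motor neuron code, and all 6 were found among the 21457 features measured in 16042 cholinergic nuclei of the adult mouse spinal cord. The nuclei came from 12 mice of the strain Chat-IRES-Cre::Sun1-sfGFP, aged 8 weeks and heterozygous for both alleles (Chat-iCre:+/wt; SUN-SfGFP:+/wt), in which Cre made from the *Chat* locus marks a nucleus for good with GFP on its envelope, so that a nucleus stays marked whether or not it still makes *Chat*. The mice were pooled by 4. Replicate 1 was 2 males and 2 females, replicate 2 was 4 males and replicate 3 was 4 females, and each pool gave a cervical, a thoracic and a lumbar/sacral library of sorted GFP+ nuclei, 9 in all, with no treatment. The authors divided the nuclei into 3 skeletal motor neuron (MN) clusters, S1 to S3, 10 visceral MN clusters, V1 to V10, and 8 cholinergic interneuron clusters, I1 to I8, and they assigned S2 to alpha MNs, S3 to gamma MNs and S1 to a further skeletal type, Type 3.

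In the embryo these genes write the identity of motor neurons. All 6 encode homeodomain transcription factors, and all but *Mnx1* carry LIM domains, which bind the bridging protein Ldb1 so that the factors act in complexes. *Isl1* and *Isl2* come on as motor neurons are born, *Mnx1* (Hb9) holds interneuron programs down in them, *Lhx3* and *Lhx4* act with Isl1 to set motor neuron fate and persist in the medial column that serves axial muscle, and *Lhx1* marks the lateral division of the limb column, whose neurons lose *Isl1*. *Isl1* is also made by the preganglionic, or visceral, neurons, *Lhx3* by embryonic V2a interneurons and *Lhx1* by many dorsal and ventral interneurons.

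The genes lie apart in the genome. On GRCm38 (GENCODE annotation), *Isl1* spans chromosome 13 from 116298281 to 116309689 (minus strand), *Isl2* chromosome 9 from 55538672 to 55546180 (plus strand), *Mnx1* chromosome 5 from 29473034 to 29478470 (minus strand), *Lhx1* chromosome 11 from 84518284 to 84525535 (minus strand), *Lhx3* chromosome 2 from 26200212 to 26208289 (minus strand) and *Lhx4* chromosome 1 from 155698031 to 155751684 (minus strand). *Lhx4* is the longest, at 53654 bases against 5437 to 11409 for the others. Reads from introns count in nuclear RNA, and the values are not scaled by length, so levels are compared below within a gene and not between genes.

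The values are corrected counts made by the authors' normalization, whose library medians ran from 4712 per nucleus (lumbar/sacral replicate 1) to 16127 (cervical replicate 2). A share below is the percentage of nuclei with at least 1 corrected count, and CPM is the sum over the nuclei of a cluster in a library scaled to 1000000, given for sums of at least 10 nuclei with the SD over libraries. Shares depend on depth, and a share of 0 in n nuclei allows up to 3 counts in n, counting error only. In addition, 33 barcode sequences occurred in 2 libraries each (66 nuclei), and 2 libraries went against their labels. In skeletal nuclei, *Hoxa9*, a gene of thoracic and more caudal levels, was at 9.04 CPM in the library labelled cervical replicate 2 and at 0.629 CPM in the one labelled thoracic replicate 2, against 0.145 and 0 CPM in cervical replicates 1 and 3 and 11.9 and 15.8 CPM in thoracic replicates 1 and 3. The labels were kept, the comparisons of regions by limma and by exact test of *Isl1* were also made without these 2 libraries, and values are given for libraries as labelled. Last, the 71 S2 nuclei of cervical replicate 2 were unlike other S2 nuclei. *Tns1*, a skeletal marker, had a count in 19 of them (26.8%), against 83.6 to 97.8% of S2 nuclei in the other libraries, and their *Zeb2*, a visceral marker, was at 133 CPM against at most 9.35 CPM elsewhere, and the main comparisons with S2 are also given without them.

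Of the embryonic set, *Isl1* and *Lhx4* were the members most often found in the adult nuclei, and *Lhx3* was close to the limit of detection. A count of *Isl1* was present in 2470 nuclei (15.4% of all), of *Lhx4* in 1181 (7.36%), of *Mnx1* in 485 (3.02%), of *Isl2* in 174 (1.08%), of *Lhx1* in 150 (0.935%) and of *Lhx3* in 69 (0.430%). Most positive nuclei held a single count, from 1744 of 2470 for *Isl1* to 68 of 69 for *Lhx3*. At least 1 member was found in 53.2% of the 5054 skeletal nuclei, in 16.8% of the 5613 visceral nuclei and in 2.40% of the 5375 interneuron nuclei. Of the nuclei positive for a member, skeletal nuclei made up 92.0% for *Lhx4*, 87.9% for *Isl2*, 78.4% for *Mnx1*, 67.2% for *Isl1*, 64.7% for *Lhx1* and 46.4% for *Lhx3*. Nuclei with 2 or more members ran over libraries from 5.63 through a median of 17.0 to 50% of S2, from 6.64 through 14.1 to 51.4% of S1 and from 3.54 through 10.1 to 32.8% of S3. Without cervical replicate 2 they ran from 11.3 to 50% of S2, 6.64 to 21.7% of S1 and 3.54 to 13.7% of S3, so the ranges of the 3 clusters overlapped, and these shares depend on depth.

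**Figure D1:**
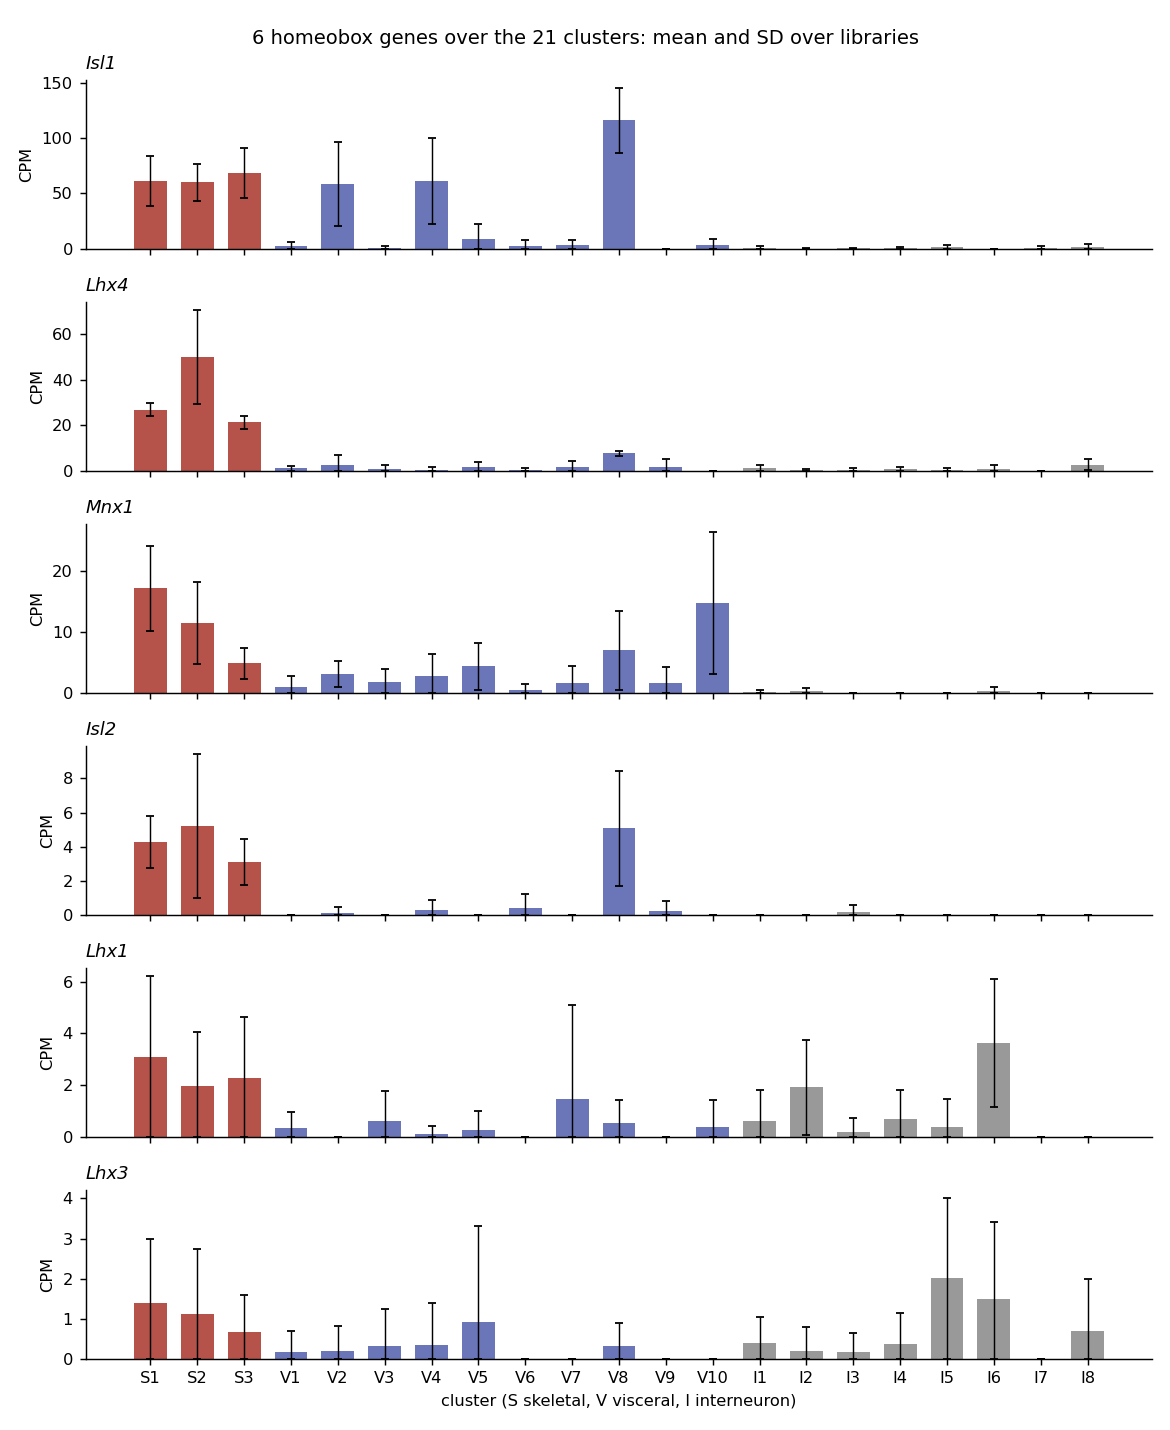
CPM of each of the 6 genes (y axis, a scale of its own for each gene) in the 21 clusters (x axis), with bars for the mean over libraries and lines for the SD, cut at 0. *Isl1* stood at 58.5 to 116 CPM in S1 to S3, V2, V4 and V8 and at most 9.18 CPM in the other 15 clusters, while *Lhx4* followed the skeletal clusters and *Mnx1* stood out in V10 besides.

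*Isl1*, the factor shared by embryonic skeletal and visceral motor neurons, fell into 2 levels over the 21 clusters that did not follow the classes. Its mean was 116 ± 29.5 CPM in V8 (SD, n = 3 libraries), 68.8 ± 22.6 in S3, 61.2 ± 38.8 in V4, 61.1 ± 22.7 in S1, 59.9 ± 16.7 in S2 and 58.5 ± 38.1 in V2 (n = 9 each). The next cluster, V5, was at 9.18 ± 13.2 CPM (n = 7), 38.2 of it in thoracic replicate 1, a sum of 15 nuclei, and at most 9.94 in each other library. All the remaining clusters were at 3.70 CPM or less, and *Isl1* had no count in the 247 nuclei of V9, which allows a share of up to 1.21%, or in the 544 nuclei of I6 (up to 0.551%). The 6 high clusters thus joined the whole skeletal class with 3 of the 10 visceral clusters. The share of *Isl1*-positive nuclei was higher in V4 than in V5 in 7 of 7 libraries (32.1 against 6.19%, exact sign-flip p = 0.0156, the smallest that 7 libraries allow, and 0.938 adjusted over the 120 neighbouring pairs of all members). Of those 120 pairs 3 had an unadjusted p under 0.05. The smallest p of 9 libraries is 0.469 after adjustment when it stands alone, so a lone pair could not pass, and the order within each level is given as values.

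Among the 10 visceral clusters, *Isl1* and *Mnx1* reached the CPM minimum and both differed between clusters (limma F test, adjusted p = 4.12e-22 and 2.62e-06), where 32.3% of the 13161 genes tested were called. The clusters were drawn by the authors from these same nuclei, so this test and those between S1, S2 and S3 describe the labels. *Mnx1*, the repressor of interneuron programs, was highest there in V10, where the libraries ran from 0 through a median of 10.9 to 35.9 CPM (14.7 ± 11.6, n = 7) on 23 positive nuclei of 189. *Isl1* was found in 4 of those 189 nuclei and *Lhx4* in 0 of them, which allows a share of up to 1.59%. In V8, where *Isl1* had its highest mean, *Mnx1* was at 6.93 ± 6.44 CPM. V8 was also the visceral cluster with the most *Isl2*, at 5.08 ± 3.37 CPM, a mean within the range of 3.07 to 5.22 CPM of the skeletal clusters, and with the most *Lhx4*, at 7.64 ± 1.14 CPM. V8 was summed in lumbar/sacral libraries alone, and the other clusters over all regions. In those 3 libraries *Lhx4* was at 7.58 ± 5.16 CPM in V2, *Mnx1* at 7.26 ± 3.96 in V5 and *Isl1* at 103 ± 43.3 in V4, close to V8. *Isl2* had no count there in visceral nuclei outside V8. In V8, 4.71% of nuclei held 2 or more members, against 1.36% in V4 and 1.04% in V2, both over all regions. The 5 astrocyte markers together were also higher in V8, at 46.4 to 108 CPM over its 3 libraries with 3 of the 5 at 0 in all of them, than in V2 (7.59 to 36.0 CPM) and V4 (5.43 to 36.6 CPM), and their part in the V8 values was not tested.

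*Lhx4*, a paralogue of *Lhx3*, was the member that separated skeletal from other clusters best and alpha from other skeletal MNs most. Its S2 values were 75.2, 18.6 and 69.5 CPM in cervical replicates 1 to 3, 75.3, 42.4 and 52.8 CPM in the thoracic and 48.6, 23.8 and 44.7 CPM in the lumbar/sacral libraries. In S1 the libraries ran only from 22.7 through a median of 26.7 to 33.1 CPM, and in S3 from 17.2 through 21.3 to 24.97 CPM. S2 lay above S1 and S3 of all libraries in 7 of 9 libraries, and the exceptions were cervical and lumbar/sacral replicate 2. Of the 11465 genes tested, 37.1% were called among the 3 clusters, as were *Lhx4* (adjusted p = 1.10e-04) and *Mnx1* (4.97e-05) of the 3 members tested, and *Isl1* was not (0.616).

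In S2 against S1, *Lhx4* was higher by 0.69 ± 0.17 on the log2(CPM + 5) scale (SE, adjusted p = 0.00296), the only member called where 25.4% of genes were, 13.1% higher and 12.3% lower in S2. In S2 against S3 it was higher by 0.97 ± 0.17 (adjusted p = 4.86e-05), and *Mnx1* was higher by 0.68 ± 0.18 (0.00529), where 31.1% of genes were called, 17.6% higher and 13.5% lower in S2. S1 and S3 differed in *Mnx1*, by 1.15 ± 0.18 (adjusted p = 2.30e-05), and not detectably in *Lhx4* (0.29, adjusted p = 0.301), with 19.8% of genes called, 11.1% higher and 8.69% lower in S1. Differences on this scale understate those of low genes. Without cervical replicate 2, the S2 means were 54.0 ± 18.1 CPM for *Lhx4*, 12.6 ± 6.14 for *Mnx1* and 64.2 ± 11.4 for *Isl1* (n = 8), and the difference of *Lhx4* was 0.83 from S1 (adjusted p = 3.76e-05) and 1.08 from S3 (6.02e-07), that of *Mnx1* from S3 being 0.87 (3.67e-06).

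*Mnx1* was higher in S1 and in S2 than in S3, and its difference between S2 and S1 was not called (−0.47, adjusted p = 0.0632), though it was with a pseudocount of 20 (−0.25, 0.0430) or median of ratios scaling (−0.48, 0.0351). In S1 the libraries ran from 9.09 through a median of 14.8 to 27.9 CPM, in S2 from 1.96 through 9.53 to 26.5 CPM and in S3 from 0.823 through 3.82 to 9.25 CPM. S1 was above S3 within each of the 9 libraries by share, with 14.0 ± 8.45% against 4.07 ± 2.94% of nuclei positive (exact sign-flip p = 0.00391, the smallest 9 libraries allow, 0.0703 adjusted over 18 tests). The share of *Lhx4*-positive nuclei was 33.5% in S2, 21.7% in S1 and 16.5% in S3. None of the 18 share tests between skeletal clusters, of which a lone one could not pass at 9 libraries, passed after adjustment and 5 had an unadjusted p under 0.05, whereas 3 passed without cervical replicate 1 and 3 without cervical replicate 2. With nuclei thinned to 4600 corrected counts each, which left out 8.63% of nuclei and 44.1% of those of lumbar/sacral replicate 1, 3 of the 18 passed: *Lhx4* in S2 against S1 (21.6 against 10.9%), *Lhx4* in S2 against S3 (21.6 against 9.59%) and *Mnx1* in S1 against S3 (7.21 against 2.85%), each at an adjusted p of 0.0469 by the exact test.

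*Isl1* was not called between alpha, gamma and Type 3 nuclei. Its log2 differences were −0.01 for S2 against S1, −0.18 for S2 against S3 and −0.17 for S1 against S3, with adjusted p from 0.447 to 0.965. Without cervical replicate 2 the *Isl1* means were 57.8 ± 21.9 CPM in S1, 64.2 ± 11.4 in S2 and 65.3 ± 21.4 in S3 (n = 8). The sign of S2 against S1 changed as single libraries were left out. The share test pointed to slightly fewer positive nuclei in S1 than in S3, lower in 8 of 9 libraries (37.8 against 42.3%, exact p = 0.0117, adjusted 0.0703).

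**Figure D2:**
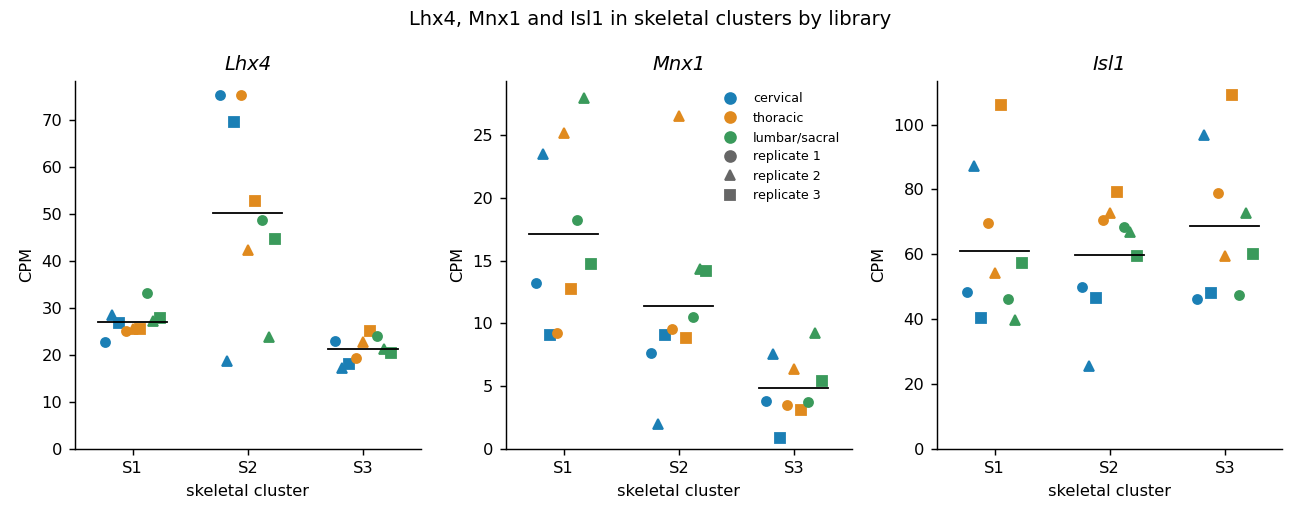
CPM (y axis) of *Lhx4*, *Mnx1* and *Isl1* in the skeletal clusters S1 to S3 (x axis), with 1 point a library, colour for the labelled region, shape for the replicate and a line at the mean. *Lhx4* spread from 18.6 to 75.3 CPM in S2 and stayed between 17.2 and 33.1 CPM in S1 and S3, and the triangles of replicate 2 lay highest for *Mnx1* in S1 and S3.

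The male pool, replicate 2, stood apart in *Mnx1* of S1, S3 and V4 and in *Lhx4* of S2, but not in each cluster. Its 3 libraries held 23.5 to 27.9 CPM of *Mnx1* in S1 against 9.09 to 18.2 CPM in the other 6, a separation found for 7.01% of all genes tested, and 6.38 to 9.25 against 0.823 to 5.40 CPM in S3 (8.38% of genes). In V4 the male pool was at 4.89 to 10.6 CPM and the others at 0 to 1.32 CPM (4.16%). These V4 values rest on few nuclei, with *Mnx1* in 3 of 44, 2 of 44 and 2 of 54 nuclei of the male pool. Each other library held at most 2 positive V4 nuclei. For *Lhx4* in S2 the order was opposite, with 18.6 to 42.4 CPM in the male pool against 44.7 to 75.3 CPM in the others (5.51%), and its lowest value is that of the S2 nuclei of cervical replicate 2, without which the male pool was at 23.8 and 42.4 CPM. Each percentage is the share of genes whose 3 male-pool values lay on that side of the other 6. With 1 pool of each sex, pool and sex cannot be told apart. In S1 the mixed pool ran from 9.21 to 18.2 CPM of *Mnx1* and the female pool from 9.09 to 14.8 CPM. The male pool held both the lowest and the highest *Mnx1* value of S2, 1.96 and 26.5 CPM. Its *Mnx1* in V2, at 4.96, 0 and 6.68 CPM, overlapped the other pools. *Lhx4* of the male pool also overlapped the others, with 25.5 to 28.5 against 22.7 to 33.1 CPM in S1. In S3 these *Lhx4* values were 17.2 to 22.7 against 18.1 to 24.97 CPM.

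*Isl2*, *Lhx1* and *Lhx3* stayed under the 10 CPM minimum in skeletal and visceral fits and were described by shares alone. *Isl2*, the partner of *Isl1* in newborn motor neurons, was found in 57 of 1285 S2 nuclei, 47 of 1528 S1 nuclei and 49 of 2241 S3 nuclei, or 4.44, 3.08 and 2.19%, and in 57 of 1214 S2 nuclei (4.70%) without cervical replicate 2. In interneurons it was found in 1 of 5375 nuclei, which gives the level to set these shares against. *Lhx3* was found in 32 skeletal nuclei (0.633%) and in 31 interneuron nuclei (0.577%). Of the interneuron nuclei with *Lhx3*, 13 were in I5 and 7 in I6. In I5 the *Lhx3*-positive nuclei came from 6 of 9 libraries, with a range of 0 to 6.10 CPM, and in I6 from 4 of 9. *Lhx1* was most frequent among interneurons in I6 (15 of 544 nuclei, 2.76%, positive in 8 of 9 libraries) and I2 (13 of 780, 1.67%). Without the CPM minimum, *Lhx1*, *Lhx3* and *Lhx4* were called among interneuron clusters. The share of all genes called in that setting is not given here, so these calls cannot be set against it. In the main test 65.8% of genes were called and no member was tested.

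*Lhx1* in skeletal nuclei was uneven over the libraries. In S1 and S3 together it was found in 88 of 3769 nuclei (2.33%). The counts were 5 of 584 nuclei in cervical replicate 1, 0 of 95 in the library labelled cervical replicate 2 and 7 of 421 in cervical replicate 3. In the thoracic libraries they were 0 of 174, 27 of 607 and 1 of 202 in replicates 1 to 3, and in the lumbar/sacral libraries 8 of 652, 27 of 544 and 13 of 490. The zeros allow shares of up to 3.16 and 1.72%, and the highest shares, 4.45% in the library labelled thoracic replicate 2 and 4.96% in lumbar/sacral replicate 2, were both in the male pool.

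In S2, left out of these counts, *Lhx1* was found in 1 of 71, 0 of 92 and 1 of 26 nuclei of the libraries labelled cervical replicate 2 and thoracic replicates 1 and 3. Those S2 shares, up to 3.85%, were not below those of the other libraries, 0 to 3.80%. In S1 and S3, these 3 libraries, with 1 *Lhx1*-positive nucleus between them, were alike in *Aldh1a2* and *Isl1* as well. *Aldh1a2*, which makes retinoic acid and is known from the limb column, was at 0 CPM in the S1 and S3 nuclei of these 3 and at 6.38 to 21.1 CPM in the other 6. *Isl1* was at 93.1, 75.3 and 108 CPM in them and at 44.9 to 60.7 CPM in the others. *Hoxc5* in skeletal nuclei was at 82.5, 101 and 94.5 CPM in them, *Hoxa9* at 9.04, 11.9 and 15.8 CPM and *Hoxd10*, a gene of lumbar levels, at 0 CPM, whereas the lumbar/sacral libraries had *Hoxc5* at a like level (81.3 to 101 CPM), *Hoxa9* at 17.0 to 24.7 CPM and *Hoxd10* at 4.73 to 10.7 CPM. These 3 libraries were named from their values, so the differences are given side by side with no test. Their median depths were 16127 and 11077 corrected counts a nucleus, the highest of all libraries, and 8276. The part of depth in the *Isl1* values was not tested.

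**Figure D3:**
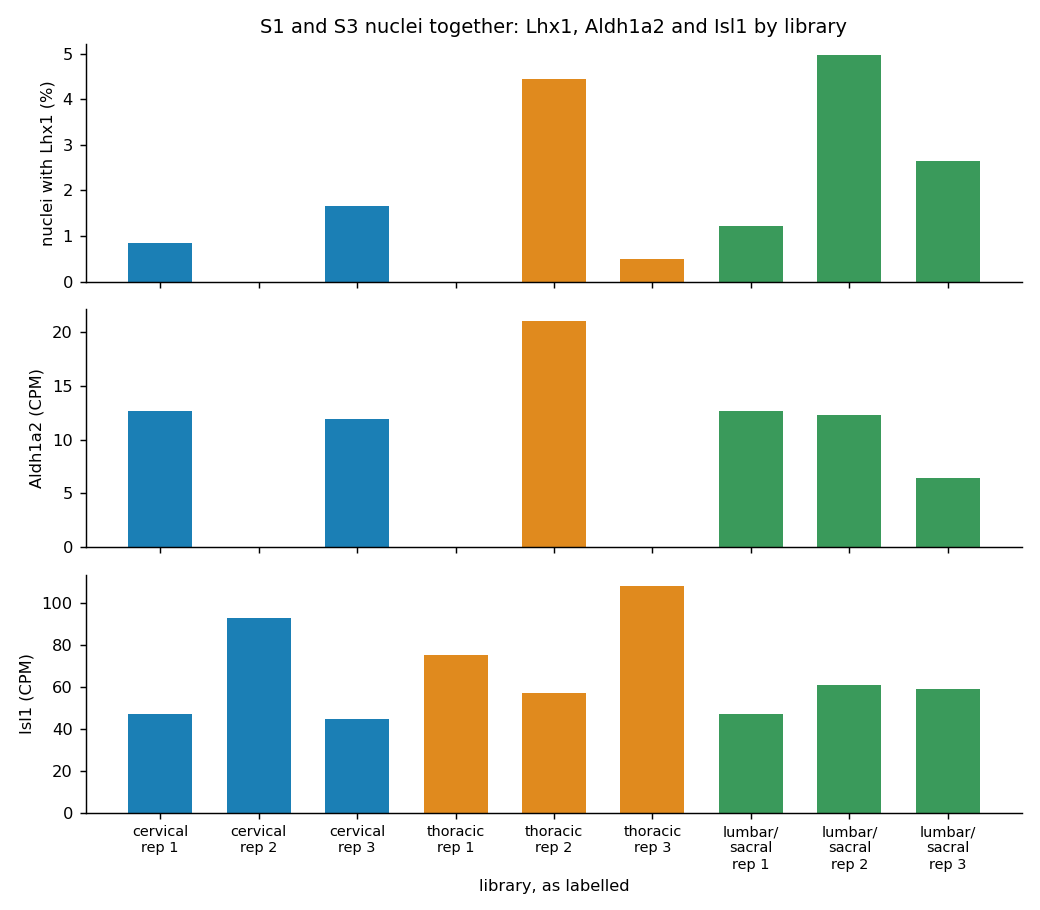
Share of nuclei with a count of *Lhx1* (top, percent), CPM of *Aldh1a2* (middle) and CPM of *Isl1* (bottom) in the S1 and S3 nuclei of each library (x axis, as labelled), 1 bar a library and coloured by the labelled region. The libraries labelled cervical replicate 2 and thoracic replicates 1 and 3 held *Lhx1* in at most 0.495% of nuclei and no *Aldh1a2*, and *Isl1* at 75.3 to 108 CPM.

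*Lhx1* and *Isl1*, which part company between the lateral and medial limb columns of the embryo, seldom met in adult gamma MNs. In S3, 2 nuclei held both, where 17.2 were expected from the shares within each library. The observed number was below the expected in 6 of the 6 libraries with *Lhx1*, with expected numbers of 0.507 to 6.51 a library (exact sign-flip p = 0.0313, the smallest that 6 libraries allow, 0.234 adjusted over 45 pairs of members and clusters). Where the expected number is as small as 0.507, a count of 0 is likely and lies below it, so this tally and its p lean toward fewer. In S1 both were found in 6 nuclei and 10.7 were expected, and the number was below in 4 of 7 libraries. S2, the alpha MNs, did not show it, with both in 3 nuclei where 3.18 were expected, below in 3 of 5 libraries. In S1 and S3 together, 8 of the 88 *Lhx1*-positive nuclei held *Isl1*. None of the 45 pairs passed after adjustment, which a lone pair with 6 libraries could not do. An unadjusted p under 0.05 was found for 6, all of them pairs with *Lhx1* or *Lhx3*. Among these 6, *Isl2* with *Lhx3* in S1 and S3, and *Isl2* with *Lhx1* and *Mnx1* with *Lhx3* in S3, were never found together. For them 0.293 to 1.17 nuclei were expected, and a count of 0 lies below any expected number. Their p was thus fixed at its smallest, and no conclusion is drawn from it. The pair of *Isl1* and *Lhx4* in S3 met about as often as their shares give, 127 nuclei against 123. *Mnx1* was found in 7 of the 13 S1 nuclei with *Lhx3*, against 1.74 expected, above in 4 of 7 libraries (exact p = 0.125, adjusted 0.402).

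Between regions, no member was called in S1, S2 or S3. For lumbar/sacral against the other libraries limma called 0% of genes in S1 (439 of 10025 at an unadjusted p under 0.05), 0% in S2 (245 of 10387) and 0.0711% in S3, 0.0508% higher and 0.0203% lower. Between cervical and thoracic it called 0% in S1, S2 and S3, with 398, 882 and 303 genes at an unadjusted p under 0.05. Interneuron nuclei gave 0.0510% for lumbar/sacral against the rest (0.0204% higher, 0.0306% lower), and no member was tested there. With the pool of mice as a replicate block, limma called 23 genes in S1, 1 in S2, 12 in S3, 737 in visceral nuclei (428 without it) and 44 in interneuron nuclei (5 without it) for lumbar/sacral against the rest, none of them a member. *Isl1* in S2 was at 49.9, 25.5 and 46.5 CPM in cervical replicates 1 to 3, at 70.6, 72.9 and 79.2 CPM in the thoracic and at 68.3, 66.8 and 59.6 CPM in the lumbar/sacral libraries. As labelled, the cervical values lay below all others, with a log2 difference from thoracic of −0.84 (limma, adjusted p = 0.542). The lowest, 25.5 CPM, was that of the S2 nuclei of cervical replicate 2, which were unlike other S2 nuclei. That library and thoracic replicate 2 (72.9 CPM) also went against their region labels, so no regional order is drawn from these values. Without the libraries labelled cervical and thoracic replicate 2, *Isl1* was lower in cervical than in thoracic nuclei by 0.89 in S1, 0.58 in S2 and 0.91 in S3 on the log2 scale (adjusted p = 0.766, 0.858 and 0.528). *Lhx4* in S2 was lower in lumbar/sacral libraries by 0.77 in that setting (adjusted p = 0.910).

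*Isl1* CPM in visceral nuclei was higher in each lumbar/sacral library than in any other, and V8 was found almost wholly there. The shares of positive nuclei, which depend on depth, overlapped, at 17.4 to 22.4% in lumbar/sacral and 4.27 to 20% in the other libraries (exact permutation p = 0.107, adjusted 0.446). Over all visceral nuclei *Isl1* was at 47.8, 57.1 and 54.2 CPM in lumbar/sacral replicates 1 to 3, at 8.13, 24.0 and 6.15 CPM in the cervical and at 25.6, 6.93 and 31.7 CPM in the thoracic libraries. The lumbar/sacral values lay above all others, by 1.56 ± 0.39 on the log2 scale (limma, adjusted p = 0.0691), which missed the threshold that 4.27% of genes passed (2.32% higher, 1.94% lower). It passed without cervical replicate 2 (1.77, adjusted p = 0.0218) and without the libraries labelled cervical and thoracic replicate 2 (1.52, 0.00175). The single-gene exact permutation test over the 84 groupings gave the smallest p it can, 0.0119 (0.0238 adjusted over 4 tests). Permuted within pools of mice, which pair the libraries, it gave 0.0370, the smallest of 27 arrangements, and 0.0741 adjusted, so the call is lost there by design. V8 made up 30.5% ± 4.14 of the lumbar/sacral visceral nuclei and 4 nuclei of the other regions. With V8 left out, *Isl1* was at 25.9 ± 11.2 CPM in lumbar/sacral and 17.0 ± 11.3 CPM in the other libraries (exact permutation p = 0.262). In a sum over visceral nuclei, a larger share of *Isl1*-positive clusters and more *Isl1* in a nucleus cannot be told apart, and the clusters V2 and V4 were therefore read one by one.

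By CPM, *Isl1* in V4 was higher in lumbar/sacral libraries, and in V2 no difference was called. The share of V4 nuclei with a count was 38.4% ± 14.2 in lumbar/sacral, 35.5% ± 19.2 in cervical and 29.9% ± 5.10 in thoracic libraries. Such shares depend on depth, and those of V4 were not tested. In V4, *Isl1* was at 38.2, 53.6 and 32.8 CPM in the cervical, 40.8, 31.8 and 43.5 CPM in the thoracic and 117, 138 and 54.9 CPM in the lumbar/sacral libraries, and each lumbar/sacral value was above the 6 others (103 ± 43.3 against 40.1 ± 7.99 CPM, exact permutation p = 0.0119, adjusted 0.0238). Within pools the exact p was 0.0370, again the smallest possible and 0.0741 adjusted, and without cervical and thoracic replicate 2 the other 4 libraries were at 38.8 ± 4.57 CPM (exact p = 0.0286, the smallest possible, 0.0571 adjusted). In V2 it was at 37.1, 112 and 28.8 CPM in the cervical, 92.1, 45.2 and 118 CPM in the thoracic and 37.6, 40.1 and 16.0 CPM in the lumbar/sacral libraries. The high V2 values were those of the libraries labelled cervical replicate 2 and thoracic replicates 1 and 3, and the lumbar/sacral values overlapped the rest (31.2 ± 13.2 against 72.2 ± 39.7 CPM, exact p = 0.155, 0.185 within pools and 0.314 without cervical and thoracic replicate 2). The lumbar/sacral difference was +1.19 in V4 and −0.99 in V2 on the log2(CPM + 5) scale, and the difference of these, 2.18, gave an exact permutation p of 0.0119, again the smallest possible, and 0.0370 within pools. Without cervical and thoracic replicate 2 it was 2.12 (exact p = 0.0286).

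**Figure D4:**
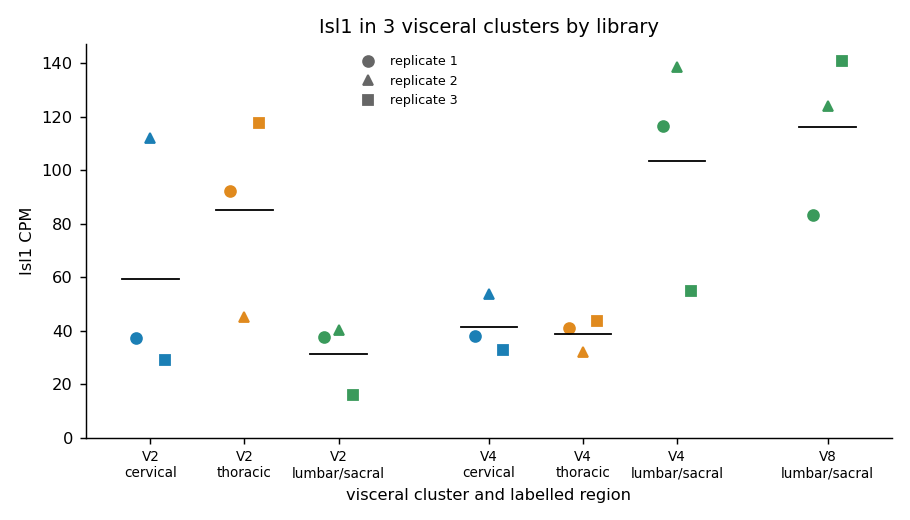
*Isl1* CPM (y axis) in V2, V4 and V8 by labelled region (x axis), with 1 point a library, shape for the replicate and a line at the mean. Lumbar/sacral values were the highest in V4 (54.9 to 138 CPM) and low in V2 (16.0 to 40.1 CPM), and V8 was measured in lumbar/sacral libraries at 83.4 to 141 CPM.

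All 10 V2 nuclei with *Lhx4* were lumbar/sacral. The libraries there held 7 of 121, 1 of 66 and 2 of 47 positive nuclei, and no count was found in the 161 cervical V2 nuclei, which allows up to 1.86%, or the 376 thoracic ones (up to 0.798%). Over all visceral nuclei its share was 2.08% in lumbar/sacral and 0.776% in the other libraries, without overlap (exact permutation p = 0.0119, the smallest possible, 0.179 adjusted over 30 tests). With V8 left out the lumbar/sacral libraries were at 2.01, 0.599 and 1.57% and overlapped the others, at 0.465 to 0.995% (means 1.39 and 0.776%, exact p = 0.0714). None of these 30 share tests of regions passed, which a lone one could not do, and 4 had an unadjusted p under 0.05, among them *Lhx3* in S2, found in 0.826 to 3.45% of nuclei in the lumbar/sacral and in 0 to 0.613% in the other libraries (exact p = 0.0119, adjusted 0.179). This rests on 2 of 159, 2 of 58 and 2 of 242 nuclei in lumbar/sacral replicates 1 to 3. Cervical replicates 1 and 3 held 2 of 395 and 1 of 163, and the other libraries 0.

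Nuclei of S1 with and without a count of *Isl1* differed in a small set of genes. In the 8 libraries with at least 10 nuclei of each kind, 431 positive and 1060 negative, 26 of 10864 genes were called (0.239%), 11 higher (0.101%) and 15 lower (0.138%) in positive nuclei. The largest differences upward were in *Col4a3*, a basement membrane collagen chain (13.6 against 4.19 CPM, log2 difference 0.96, adjusted p = 0.0334), *Gm20631* (0.95, 0.0120), *Hmcn1*, an extracellular matrix protein (0.79, 8.50e-05), *Erbb4*, a neuregulin receptor (0.77, 8.50e-05), and *AC129186.1* (0.71, 6.78e-08). *Erbb4* ran from 36.1 through a median of 130 to 217 CPM in positive and from 19.1 through 71.6 to 158 CPM in negative nuclei. *Gm20631* lies within *Hmcn1* on the other strand (chromosome 1, 150625266 to 150783499 in 150562524 to 150993435, GRCm38), and reads of the 2 may not be told apart. Downward they were in *Cdh13*, a cadherin (−0.65, 8.50e-05), *Adarb2*, of the RNA editing family (−0.52, 0.00989), *Pcdh11x*, a protocadherin (−0.49, 8.50e-05), and *Ncam2* (−0.42, 8.50e-05) and *Ntm* (−0.40, 0.00823), cell adhesion molecules of the immunoglobulin superfamily. *Cdh13* ran from 93.3 through 121 to 209 CPM in positive and from 184 through 199 to 234 CPM in negative nuclei. The normalization makes corrected totals nearly equal within a library (SD 5.85 to 10.7% of the mean), so the sequencing depth of the 2 kinds could not be compared, and its part in these differences was not tested. The number of called genes was 15 without thoracic replicate 2, 17 without lumbar/sacral replicate 2 and 42 without thoracic replicate 3, and 2 with no CPM minimum.

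**Figure D5:**
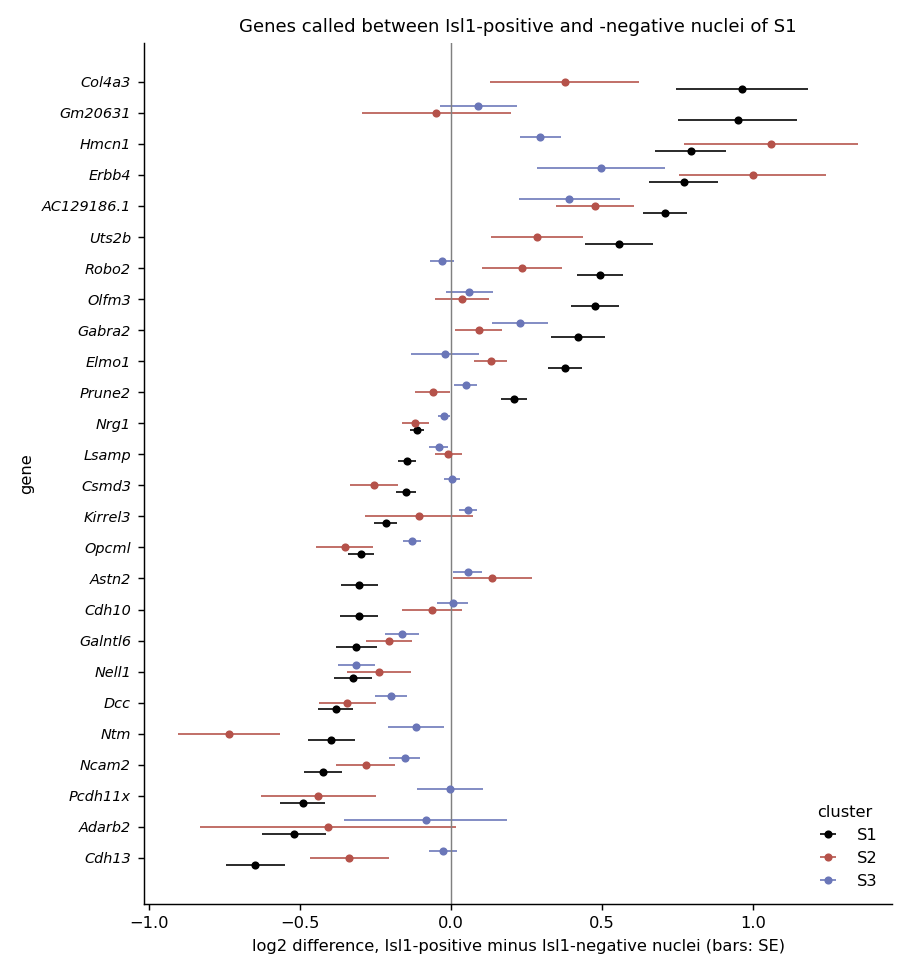
Log2 difference between *Isl1*-positive and *Isl1*-negative nuclei (x axis, log2(CPM + 5) scale, bars for the SE) of the 26 genes called in S1 (y axis), shown for S1, S2 and S3. In S2 the sign was that of S1 for 23 of 26 genes and in S3 for 18 of the 24 tested.

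The same contrast called 2 genes in S2 and 1 in S3, counts that moved with the processing: with sums of at least 25 nuclei they were 35 and 20, and with no CPM minimum 0 and 0. A difference between clusters in the number of such genes was not tested. In S2 *Fstl5* (−0.97) and *Hs6st3*, a heparan sulfate sulfotransferase (−0.57), were lower in positive nuclei, both at an adjusted p of 0.0174 and 0.0173% of genes, and in S3 *Hcrtr2*, an orexin receptor, was higher in 9 of 9 libraries (0.42, adjusted p = 0.00381, 0.00927% of genes). Of the 26 genes of S1, 14 had an unadjusted p under 0.05 with the same sign in S2, where 8.18% of all genes had such a p in either direction, and 9 of the 24 tested did in S3 (6.35%). None had one with the opposite sign, and none was called. For *Lhx4*, 0 of 11274 genes were called in S1 (limma, 654 at an unadjusted p under 0.05), 0 of 11881 in S2 (691) and 1 in S3, *Malat1*, a nuclear RNA, lower by 0.08 (adjusted p = 0.00599, 0.00917% of genes). For *Mnx1* in S1, 0 of 10879 genes were called (563 unadjusted). The other members and clusters had fewer than 6 libraries with 10 nuclei of each kind and were not compared.

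Of the 5 other LIM homeobox genes in the matrix, 0 reached the CPM minimum in skeletal clusters. *Lhx5*, a paralogue of *Lhx1* known from spinal interneurons, was found in 10.4% of interneuron nuclei, with 26.5 CPM in I7 and 24.6 CPM in I3, and in 0.416% of skeletal nuclei. The partners of LIM factors were measured more fully. Of 9 LIM cofactors tested, 3 were higher and 2 lower in each skeletal pair. The shares of all genes called in each pair are given above, with none for the setting without cervical replicate 2. *Lmo4*, which competes for Ldb1, was higher in S2 than in S1 by 0.98 (adjusted p = 9.34e-06) and lower in S1 than in S3 by 1.44 (1.72e-08), and *Ldb2*, a bridging protein, was higher in S2 than in S1 by 0.91 (0.0123). *Ssbp2*, which stabilizes Ldb complexes, was at 796 ± 50.7 CPM in S1, 650 ± 102 in S2 and 157 ± 31.7 in S3, and *Lmo1* was at 3.76 ± 1.46, 10.8 ± 4.83 and 28.3 ± 6.33 CPM in the same order. Over the 9, the median log2 difference of S2 from S1 was 0.16, against −0.02 for all genes. Without cervical replicate 2, 4 cofactors were higher and 3 lower in S2 against S1 and 3 and 3 against S3, and *Ldb2* differed between S2 and S1 by 0.80 (adjusted p = 0.0113).

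Genes of motor columns and pools were present as well. Of 13 tested, 4 were higher and 3 lower in S2 against S1, 3 and 3 against S3, and 2 higher and 4 lower in S1 against S3, with 5 and 3, 3 and 4, and 2 and 6 without cervical replicate 2. The counts over all libraries are to be set against the shares of all genes called in each pair, given with the skeletal comparisons above. No such share is given without cervical replicate 2, so those counts cannot be set against one. *Etv1*, known from proprioceptive circuits and motor pools, was at 27.2 ± 12.7 CPM in S2 and 2.59 ± 1.003 in S1 (log2 difference 2.00, adjusted p = 1.29e-08), and *Runx1*, a pool factor, at 20.9 ± 5.63 CPM in S3 and 2.35 ± 1.70 in S1 (1.05e-09). The guidance genes *Epha4* and *Epha7* divided the clusters differently, with *Epha4* highest in S1 (172 ± 36.7 CPM) and *Epha7* in S3 (336 ± 74.1 CPM). The 8 motor neuron progenitor factors in the matrix, among them *Olig2*, *Nkx6-1* and *Pax6*, gave 0 genes tested, and *Olig2* was found in 9 nuclei of 16042. Of 9 ventral interneuron factors in the matrix 1 was tested and not called, and of 3 cholinergic genes, *Slc5a7*, the choline transporter, and *Chat* were lower in S2 than in S1 by 0.45 and 0.24 (adjusted p = 2.48e-04 and 0.0334). The 71 S2 nuclei of cervical replicate 2 had *Chat* at 144 CPM against 232 to 308 CPM in the other libraries, and without them *Slc5a7* differed by −0.36 (5.35e-05) and *Chat* by −0.15 (0.0594), which was not called.

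Over the means of the 21 clusters, the 5 genes most like *Isl1* of 12130 were *Mctp2* (Pearson r = 0.91), *Pik3r1* (0.90), *Gm43122* (0.89), *Fgfr1op2* (0.84) and *Plekhg3* (0.82). Those most like *Lhx4* were *6030407O03Rik*, *Pdgfd* and *Mecom* (0.95 each), *Has3* (0.94) and *Ppp1r12b* (0.93), and those most like *Mnx1* were *Prss12* (0.82), *Gm28836* (0.81), *Npr3* (0.79), *Sec14l1* (0.78) and *Cnnm2* (0.77). *Mecom*, a transcription factor, was at 59.7, 85.5 and 78.9 CPM in S1, S2 and S3 and at 3.49 CPM in V8. The 21 means share the 9 libraries, and the skeletal clusters set most of these values.

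Of the markers of other cells, *Mbp* of 2 oligodendrocyte markers tested was called between skeletal clusters, as was *Slc1a2*, the 1 astrocyte marker tested, and 0 of 3 microglia markers were. The 5 oligodendrocyte markers together ran over libraries from 63.7 to 132 CPM in S1, 52.0 to 149 in S2 and 31.6 to 57.0 in S3, and the 4 microglia markers from 31.1 to 145, 19.6 to 194 and 22.8 to 148 CPM. The 4 skeletal markers ran from 629 to 838 CPM in S1, 174 to 980 in S2 and 603 to 842 in S3, the lowest S2 value being that of cervical replicate 2. The part of such RNA in the differences between skeletal clusters was not tested.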

How the data were processed

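Nuclear RNA of 16042 sorted cholinergic nuclei in 9 libraries was analysed. The authors made the deposited values with Cell Ranger 3.1.0 (mm10 pre-mRNA reference) and SCTransform in Seurat 3.1.4, for each region separately, and the deposited matrix therefore holds corrected counts, a score rather than raw counts, together with the cluster of each nucleus. SCTransform adjusts for depth, so small differences between libraries may be altered.

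Corrected counts were summed per library and cluster (at least 10 nuclei), scaled to CPM and tested as log2(CPM + 5) in limma 3.58.1 (R 4.3.3), for genes of at least 10 CPM in at least 3 sums, with a library term between clusters and none between regions. P-values were Benjamini-Hochberg adjusted over all genes tested and called under 0.05. Shares and single values were compared by two-sided exact sign-flip or permutation tests over libraries (scipy 1.17.1). Nuclei with and without a member were compared within libraries. The fits were tested on simulated data.

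Same-numbered libraries came from the same pool of mice, so the replicate numbers pair them, and the correlations of their deviations ran from −0.22 to 0.87. Each library is a pool of 4 mice. Members and lists were chosen with earlier results of these data known. Genes named were the members, up to 6 called genes a list with the largest differences, the 5 genes most like a member and up to 5 called genes in each direction between positive and negative nuclei. Hox genes, *Tns1*, *Zeb2*, *Lhx5* and *Olig2* were named after their values were seen. The tests of *Isl1* by region within visceral clusters, the pairs of members, the permutation within pools, and the settings without V8 or without cervical and thoracic replicate 2 were chosen after seeing the data. No doublet caller was run, and how doublets were treated is not given in the sources used here, so nuclei with several members may include doublets. Intervals and limits cover counting error only.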

Additional observations from a re-analysis of the deposited data

Results flagged for a closer look

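*Mnx1* in S2 was at 26.5 CPM in thoracic replicate 2, far from the other 8 libraries, of which the next highest was at 14.3 CPM. Of 11 groups examined for such a gap 1 had it, and chance gives about 1 in 20.

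The lumbar/sacral difference of *Isl1* was larger in V4 than in V2 by 2.18 on the log2(CPM + 5) scale, by an exact permutation test of that difference (p = 0.0119, the smallest possible, and 0.0370 within pools of mice). The difference between V4 and V2 ran from 1.51 to 1.67 in the lumbar/sacral libraries and from −1.34 to 0.158 in the others.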

How the results depend on the processing

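Of 425 alternative values of 27 member differences, 405 kept direction and side of the threshold, 5 newly passed it, 0 no longer passed it and 15 changed sign. All 15 were differences that had not passed. With no CPM minimum, members called among visceral clusters were 4 and among interneuron clusters 3 (2 and 0 as reported), because more members were tested. The shares of all genes called in that setting are not given. For S2 against S1, 2 members were called with a pseudocount of 20 or median of ratios scaling (1 as reported). For lumbar/sacral against the rest in visceral nuclei, 1 member was called with a pseudocount of 20, with no minimum and without cervical and thoracic replicate 2, and 0 to 1 as single libraries were left out (0 as reported). It was *Lhx4* with no minimum (0.66, adjusted p = 0.0309) and *Isl1* in the others.

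Genes called between positive and negative nuclei were the least stable counts. For *Isl1* in S1 (26) they were 2 with no minimum, 15 without cervical and thoracic replicate 2 and 15 to 42 with single libraries left out. For *Isl1* in S2 (2) they were 0 with a pseudocount of 1, with no minimum and without cervical and thoracic replicate 2, 7 with median of ratios, 35 with at least 25 nuclei and 0 to 16 with single libraries left out. For *Isl1* in S3 (1) they were 9 with a pseudocount of 20, 0 with no minimum, 5 with median of ratios, 20 with at least 25 nuclei, 11 without cervical and thoracic replicate 2 and 1 to 20 with single libraries left out. For *Lhx4* they were 0 to 1 in S1 and 0 to 2 in S2 with single libraries left out and 18 in S2 with at least 25 nuclei (0 as reported in both). For *Lhx4* in S3 (1) they were 0 with a pseudocount of 1, no minimum or at least 25 nuclei, 2 with a pseudocount of 20 or without cervical and thoracic replicate 2, and 0 to 2 with single libraries left out. The share tests of skeletal pairs gave 3 calls when thinned and 0 to 3 with single libraries left out (0 as reported). The causes were not tested.

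The changes of sign were in *Isl1*, S2 against S1 (−0.10 to 0.18 with single libraries left out, 0.15 without cervical and thoracic replicate 2) and S2 against S3 (−0.27 to 0.012 with single libraries left out). Between cervical and thoracic they were in *Lhx4* of S1 (−0.033 to 0.10, and −0.028 without both), *Mnx1* of S1 (−0.30 to 0.29, 0.062 with median of ratios and 0.011 without both) and *Lhx4* of S2 (−0.52 to 0.36, 0.054 with median of ratios and 0.18 without both), and for lumbar/sacral in *Lhx4* of S3 (−0.071 with median of ratios).

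With the replicate block, which uses the pairing by pool, *Isl1* in visceral nuclei differed by 1.56 (adjusted p = 0.0782), and the block changed no member's call. Depth limits *Isl2*, *Lhx1* and *Lhx3*, most of whose positive nuclei held 1 count.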
